A study of Mus musculus with 6 samples.

Results

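Tbp is the mouse gene of the TATA-box binding protein, and its members on these arrays were taken as every spot whose symbol in the probe annotation is Tbp. There were 4 such spots of 31200, at probes 3335, 3336, 5495 and 5496 (Entrez gene ID 21374). Each odd probe and the even probe after it carry the same clone, so the 4 spots hold 2 of the 15600 clones, and their mean is 1 of 6788 named genes. Cultures of the mouse neuroblastoma line Neuro-2a were kept for 60 h after transfection either with 59Q, a human TBP coding sequence of CAG repeat length 59 joined to GFP in the vector pEGFPN3, or with N3, the same vector expressing GFP alone. Both groups therefore carried the vector, GFP and the FuGENE 6 transfection reagent, and differed in the human TBP insert. Total RNA of a 59Q culture and of an N3 culture was labelled with different dyes and hybridized together on each of 6 mouse cDNA arrays, and the dye of the 59Q RNA was Cy5 for replicates 1, 3, 4 and 6 but Cy3 for replicates 2 and 5. Transfection was transient, so each RNA came from a mixture of cells with and without the construct, and in such bulk RNA more transfected cells and more transcript per cell cannot be told apart. A ratio between the cultures gives no level, so markers of neuroblastoma cells could not be checked in these values.

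TBP is the subunit of the basal factor TFIID that binds the TATA box and bends the DNA there, and it is also part of the initiation factors of RNA polymerases I and III. Its conserved C-terminal part contacts DNA and TFIIA and TFIIB. Its N-terminal part holds a polyglutamine tract, and expansion of that tract in the human gene causes the ataxia SCA17. The construct supplied human protein from a plasmid, while the endogenous mouse gene kept its own promoter. The clones on the arrays are named for the mouse gene, and whether they also bind the human transcript was not tested. A Tbp value can thus hold endogenous transcript, transfected transcript or both, and these cannot be told apart here.

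The start region of the endogenous gene, which the plasmid with its human TBP coding sequence did not carry, is shown here. It is RefSeq sequence of build GRCm38.p6 at chr17:15499638-15499937 on the + strand, from 250 bases before to 50 bases after the annotated start, and capitals mark the match to a GC box (GGGCGG, or CCGCCC on the other strand).
Tbp: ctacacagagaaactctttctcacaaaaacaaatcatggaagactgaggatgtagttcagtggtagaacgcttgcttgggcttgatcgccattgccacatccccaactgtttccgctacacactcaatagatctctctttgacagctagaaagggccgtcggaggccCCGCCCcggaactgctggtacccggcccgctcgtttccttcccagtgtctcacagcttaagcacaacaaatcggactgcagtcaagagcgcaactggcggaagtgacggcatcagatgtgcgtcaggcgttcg
GGGCGG or its reverse complement occurred once in this window and in 35.7% of 32851 such windows of all genes. The letters TATAAA, searched on both strands, were not in it and were in 13.6% of all windows. These matches describe letters, and the arrays measured no binding.

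The deposited value of a spot is a Z-ratio, a score with an SD of 1 over the spots of each array, and it does not give a fold change. The study counted Z-ratios beyond 1.96 on either side of 0 as significant, and here that threshold is set against each spot on each array. The arrays held values for 19966 to 31181 of the spots, duplicate spots correlated at 0.730 to 0.889 across clones, and 2.29% to 5.73% of the spots of an array lay at least 1.96 from 0. All 4 Tbp spots had a value on all 6 arrays. The sign of the values is not settled, because the sources used here do not say which sample is the numerator on each array. In the methods 59Q is the treated and N3 the control sample, so values above 0 are likely to mean more signal from 59Q, and the values are given first as deposited. The other orders in which a ratio can have been formed would turn replicates 2 and 5 (Cy5 over Cy3) or replicate 1 (channel 2 over channel 1), and either could also turn all arrays together.

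On replicate 1, with 59Q in Cy5, the spots at probes 3335, 3336, 5495 and 5496 had Z-ratios of 2.94, 3.05, 2.79 and 2.92. On replicate 2, with 59Q in Cy3, the same spots had 2.56, 2.02, 2.20 and 2.46. Tbp stood high on these arrays with both clones, and 4 of 4 spots passed the threshold on each, where 5.65% of all spots of replicate 1 and 5.73% of all spots of replicate 2 did. On replicate 5, again with 59Q in Cy3, the spots had 1.81, 1.97, 1.60 and 1.59, and 1 of 4 passed, against 4.05% of all spots. Every Tbp spot on these 3 arrays was, as deposited, among the highest 1.48% of its array. By distance from 0, whichever the sign, 0.619% to 6.77% of the spots of an array lay at least as far out as a Tbp spot. The arrays just named include both orientations of the dyes.

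On replicate 3, with 59Q in Cy5, the spots had -0.269, -0.211, 0.153 and -0.0637. On replicate 4, in the same orientation, they had 0.326, 0.499, -0.0149 and -0.104. All 8 of these values lay inside the middle of their arrays, where 22.3% to 58.1% of all spots were at or above them. Replicate 6, also with 59Q in Cy5, divided the clones: the spots at 3335 and 3336 had 1.95 and 1.90, just under the threshold, and those at 5495 and 5496 had 0.262 and 0.0375. On replicates 3, 4 and 6 none of the 4 spots passed, where 2.29%, 2.35% and 4.05% of all spots did.

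**Figure D1:**
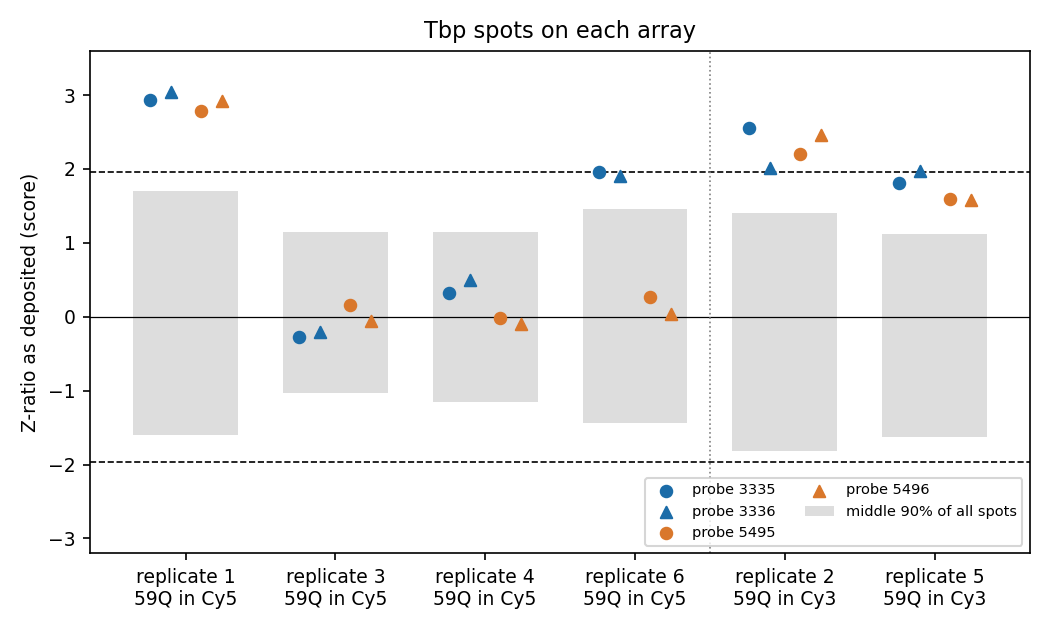
Deposited Z-ratio (score, vertical axis) of the 4 Tbp spots on each array (horizontal axis, ordered by the dye of the 59Q sample). Points are spots, with one colour per clone, grey bars span the 5th to 95th percentile of all spots, and dashed lines lie 1.96 above and below 0. Every Tbp spot lies above the grey bar on replicates 1, 2 and 5 and inside it on replicates 3 and 4, and on replicate 6 only the clone at 3335 and 3336 is above it.

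The duplicate spots of a clone lay close together. Over 12 pairs (2 clones on 6 arrays) they differed by 0.0131 to 0.545, with a median of 0.146, and 8 of the 12 differences were below the median difference of all clones on the same array. The clones themselves also ran side by side. The clone at 3335 and 3336 minus the clone at 5495 and 5496 was 0.139, -0.0434, -0.285, 0.472, 0.294 and 1.78 on replicates 1 to 6. Replicate 6 thus holds the widest gap, and on the other 5 arrays the gap was under 0.5. The mean difference was 0.393 ± 0.728 (SD, n = 6 arrays), with the first clone higher on 4 of 6 arrays, and did not exceed the spread between arrays (exact 2-sided sign-flip permutation p = 0.219). In size the clones differed by 0.502 on average over the arrays, against a median of 0.732 over the 630 genes that have exactly 2 clones with values on all arrays, and 22.4% of those genes had clones as close or closer.

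Averaged over both clones, Tbp had Z-ratios of 2.92, -0.0977, 0.176 and 1.04 where 59Q was in Cy5 (replicates 1, 3, 4 and 6) and 2.31 and 1.74 where it was in Cy3 (replicates 2 and 5). The orientations overlapped, since replicate 1 was above both arrays with 59Q in Cy3 and the other arrays with 59Q in Cy5 were below them. Among the genes measured on each array, Tbp ranked 14 of 6788 from the top on replicate 1, 40 of 6785 on replicate 2 and 62 of 6652 on replicate 5. It ranked 525 of 6252 on replicate 6, 1921 of 6100 on replicate 4 and 2190 of 5070 on replicate 3. Ranks do not use the scale of an array, and in rank too Tbp was near the top on replicates 1, 2 and 5 and in the middle on replicates 3 and 4.

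As deposited, the mean of Tbp over the arrays was 1.35 ± 1.19 (SD, n = 6), above 0 on 5 of 6 arrays. It did not pass in limma over all 6463 genes on at least 4 arrays (adjusted p = 0.999), where 0% of the genes passed as higher and 0% as lower. Without adjustment its limma p was 0.00520, the eighth smallest, and 169 genes (2.61%) had an unadjusted p under 0.05. The exact 2-sided sign-flip permutation test over the 6 arrays gave p = 0.0625 for Tbp, where the smallest p it allows is 0.0312. By clone, the mean was 1.54 ± 1.21 (SD, n = 6) at 3335 and 3336 and 1.15 ± 1.28 (SD, n = 6) at 5495 and 5496, each above 0 on 5 of 6 arrays. Neither clone passed over the 14418 clones on at least 4 arrays (limma adjusted p = 0.998 for both), and their exact sign-flip permutation p was 0.0625 and 0.0938. The labels do not say that the arrays came from separate cultures, and the series text counts 4 biological replicates and 2 flip-dye pairs where the methods give 6 replicates in different batches, so these p-values measure only the spread between arrays.

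By orientation, Tbp averaged 1.01 ± 1.36 (SD, n = 4) with 59Q in Cy5 and 2.02 over the 2 arrays with 59Q in Cy3, as deposited. The difference of 1.01 did not exceed the spread between arrays (exact 2-sided permutation p = 0.400 over 15 assignments, of which the smallest possible is 0.0667). It was 1.65 without replicate 1 and 0.645 without replicate 3. With a dye term, the part of Tbp that is alike in both orientations was 1.52 (limma adjusted p = 1.000) and the part that turns with the dye was -0.507 ± 0.396 (SE; limma adjusted p = 0.533). Read as Cy5 over Cy3 these parts change places: the part alike in both orientations would be the dye's, and the part assigned to 59Q would be the -0.507.

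Read as Cy5 over Cy3, with replicates 2 and 5 turned, the mean of Tbp was -0.00150 ± 1.90 (SD, n = 6), with 3 arrays above 0 and 3 below (limma adjusted p = 0.999). In that reading 0.263% of the 6463 genes passed as higher and 0.0155% as lower, and Tbp was not among them. Of all clones 1.89% passed as higher and 0.0486% as lower in that reading, and the Tbp clones did not, with means of 0.153 ± 2.08 at 3335 and 3336 and -0.156 ± 1.79 at 5495 and 5496 (SD, n = 6; limma adjusted p = 0.920 and 0.906). Tbp then lay at 1.01 with 59Q in Cy5 and at -2.02 with 59Q in Cy3. Their exact permutation p was 0.0667, the smallest that the design allows. The arrays turned are the 2 that this test sets against the others, and both were far above 0 as deposited. Turning them by itself parts the groups, so no conclusion is drawn from this p. Read as channel 2 over channel 1, with replicate 1 turned, the mean was 0.374 ± 1.85 (SD, n = 6), above 0 on 4 of 6 arrays (limma adjusted p = 1.000). In none of the 3 readings did the Tbp mean pass, and in 2 of them its spread between arrays was wider than the mean. Replicates 3, 4 and 6, which have 59Q in the same dye and the same channel, keep the same sign relative to each other in every reading, and over them Tbp averaged 0.373 ± 0.593 (SD, n = 3). On these arrays the clone at 3335 and 3336 averaged 0.700 ± 1.11 (SD, n = 3) and the clone at 5495 and 5496 averaged 0.0449 ± 0.105 (SD, n = 3).

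**Figure D2:**
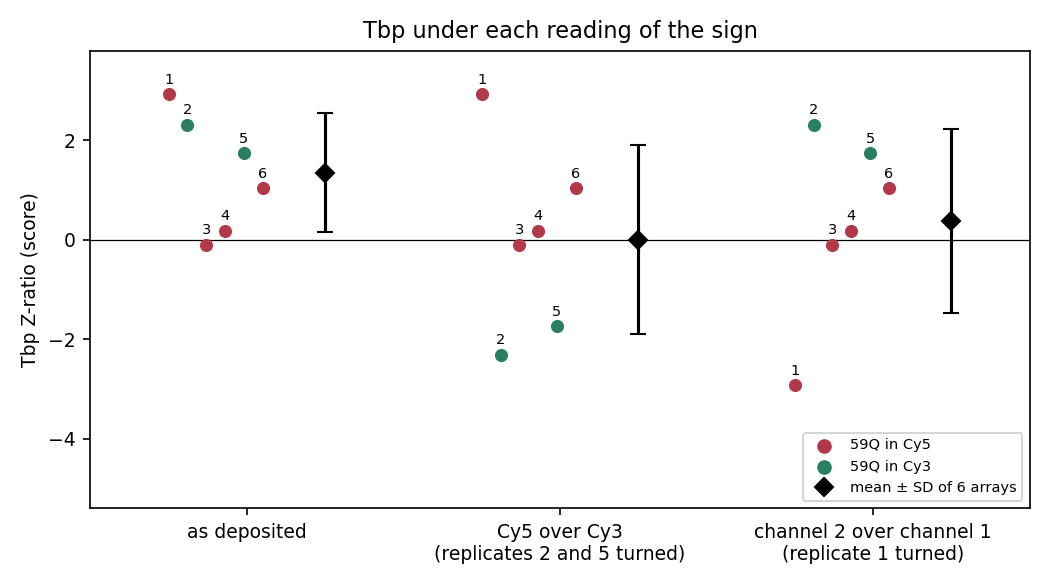
Tbp Z-ratio (score, vertical axis), the mean of 2 clones, under each order in which the ratio can have been formed (horizontal axis). Coloured points are the 6 arrays with their replicate number, and the black diamond and bar give their mean and SD. The mean is 1.35 as deposited, -0.00150 read as Cy5 over Cy3 and 0.374 read as channel 2 over channel 1, and replicates 3, 4 and 6 do not move.

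The size of a Z-ratio, its distance from 0, is the same in every reading. For Tbp the mean size over the arrays was 1.38, against a median of 0.524 over the 4926 genes with values on all 6 arrays. The mean size was at least as large in 98 of these genes (1.99%), and in 11 of the 630 genes with exactly 2 clones (1.75%). Tbp was therefore among the genes whose Z-ratios lay farthest from 0, whichever sign the arrays have.

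The size of the Tbp value moved with the number of spots that an array left without a value. That number was 19 on replicate 1, 33 on replicate 2, 1971 on replicate 5, 4776 on replicate 6, 6157 on replicate 4 and 11234 on replicate 3. In the same order the size of Tbp was 2.92, 2.31, 1.74, 1.04, 0.176 and 0.0977, so each array with more missing spots had the smaller Tbp value. The share of genes at least as far from 0 as Tbp was 0.295%, 1.56%, 3.52%, 17.1%, 77.6% and 88.6% in that order. Of the 4926 genes on all arrays, 20 (0.406%) had sizes that fell in exactly this order, Tbp among them. The median size over these genes moved less, at 0.557, 0.462, 0.445, 0.449, 0.390 and 0.441 in the same order. With array medians subtracted and each array scaled by its median absolute deviation, Tbp was still at 3.19, 2.69, 2.25, 1.35, 0.291 and 0.0388 in that order. This order was noticed after the values were seen, and what part the missing spots have in the Tbp values was not tested.

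**Figure D3:**
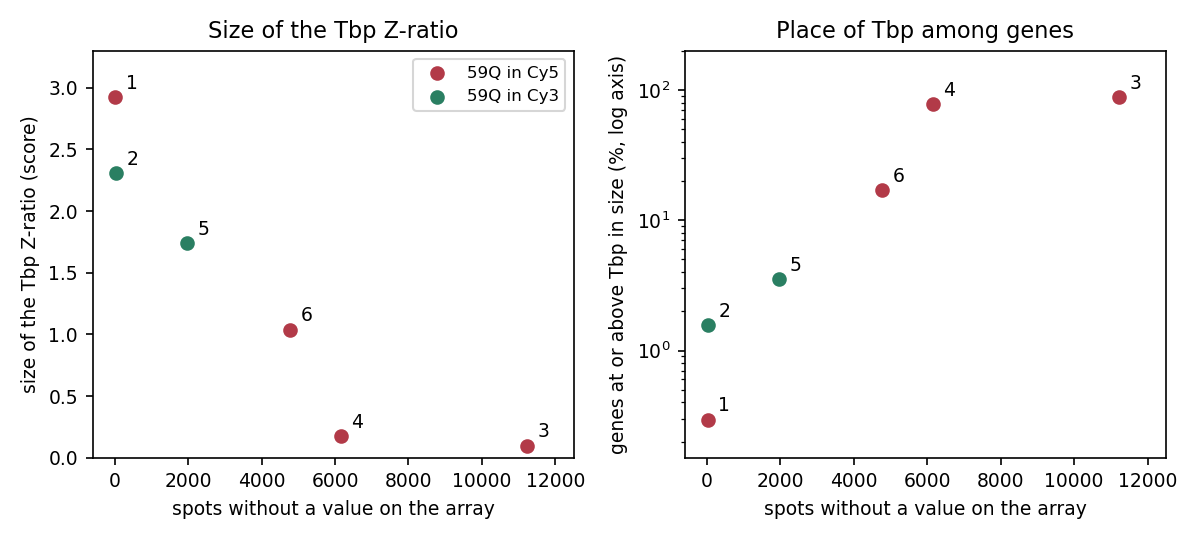
Size of the Tbp Z-ratio (score, left) and the share of genes at least as far from 0 as Tbp (percent on a log axis, right) against the number of spots without a value on each array (horizontal axis). Points are arrays with their replicate number, coloured by the dye of the 59Q sample. Tbp falls from 2.92 on replicate 1, with 19 spots missing, to 0.0977 on replicate 3, with 11234 missing, and the share rises from 0.295% to 88.6%.

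The clones next to Tbp in probe number had smaller values than Tbp on replicates 1, 2 and 5, where it was highest. Every Tbp spot was among the highest 1.48% there, so nearly any clone would be lower. The values of the neighbours are therefore given without a conclusion. Next to probes 3335 and 3336, the Arf1 clone (a GTPase of the Golgi) had 0.731, -1.98, -0.607, -0.207, 0.148 and 0.0223 on replicates 1 to 6. On the other side, the Topors clone had 0.733, 0.510, -2.52, 0.605 and 0.246 on replicates 1, 2, 4, 5 and 6 and none on replicate 3. The clones on either side of 5495 and 5496, an unnamed clone and Padi2, ran from -0.469 to 1.08. On replicate 2, where both Tbp clones exceeded 2, these 4 neighbours lay between -1.98 and 0.510. All 4 were above 0 on replicate 1, at 0.258 to 0.733, and on replicate 5, at 0.148 to 1.08. Probe number is not known to be a position on the slide, so this compares numbers only.

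On the chromosome, Psmb1, a proteasome subunit, and Pdcd2 are the nearest genes on either side of Tbp, and Psmb1 was measured. Its Z-ratios were -0.984, 0.222, -1.19, -0.931, 0.321 and 0.624 on replicates 1 to 6, averaging -0.324 ± 0.797 (SD, n = 6; limma adjusted p = 0.999). On the 3 arrays where Tbp was highest, Psmb1 was below 0 once and reached 0.321 at most. At most 0.932% of all genes were at or above Tbp on these arrays, so a lower value does not set Psmb1 apart. Read as Cy5 over Cy3 the mean of Psmb1 was -0.504. The paralogs of Tbp, Tbpl1 and Tbpl2, have no named spot in the annotation, so a comparison within the TBP family was not made here.

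The factors that work with TBP gave no call. Of 48 genes in the lists of TFIID subunits, other RNA polymerase II initiation factors, regulators that bind TBP, and RNA polymerase I and III partners, 27 are on the arrays and 26 had values on at least 4 arrays. As deposited 18 lay above 0 and 8 below, with a median of 0.0885, against a median of -0.0449 over all 6463 genes, of which 43.1% lay above 0. In limma 0 of 26 passed in either direction, as did 0% of all genes, and 0 of 26 had an unadjusted p under 0.05, where 2.61% of all genes did. As deposited 0 of 26 had a mean as high as Tbp, as 0.603% of all genes did, but read as Cy5 over Cy3 11 of 26 did, and 34.7% of all genes. Read as Cy5 over Cy3, the median of the 26 was -0.242, with 11 above 0 and 15 below, against -0.160 over all genes, and 0 passed. The sign of the median thus rests on the reading. In 5 of the 26 genes the deposited values had one sign on every array with 59Q in Cy5. On both arrays with 59Q in Cy3 they had the other, as in 15.4% of all genes. Tbp did not do so, with replicate 3 at -0.0977 and all other arrays above 0 as deposited.

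Of the TFIID subunits other than TBP, 7 of 16 were measured, with 5 above 0 and 2 below and a median of 0.115. The median was 0.0683 read as Cy5 over Cy3, again with 5 above and 2 below. Taf1, the largest subunit, had 0.281, 1.98, 0.857, 0.557, -0.635 and 0.0556 on replicates 1 to 6, averaging 0.516 ± 0.878 (SD, n = 6; limma adjusted p = 0.999). It shared the high value of Tbp on replicate 2 and not those on replicates 1 and 5. Taf7, which binds Taf1, averaged 0.407 ± 0.579 (SD, n = 5; limma adjusted p = 0.999). Of the other RNA polymerase II initiation factors, 12 were tested, with 8 above 0 and 4 below and a median of 0.0216. Read as Cy5 over Cy3 their median was -0.340, with 3 above 0 and 9 below. Gtf2f2, the smaller subunit of TFIIF, averaged 0.561 ± 0.357 (SD, n = 4), above 0 on all 4 arrays that measured it (limma adjusted p = 0.999). Gtf2e1, the larger subunit of TFIIE, averaged -0.462 ± 0.595 (SD, n = 6; limma adjusted p = 0.999).

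Dr1, a subunit of the NC2 complex that holds TBP on DNA and keeps TFIIA and TFIIB away, was the only one measured of 3 regulators that bind TBP. Its Z-ratios were -1.38, 2.36, -0.936, -0.464, 0.223 and 0.948 on replicates 1 to 6, averaging 0.125 ± 1.37 (SD, n = 6; limma adjusted p = 0.999), and -0.736 read as Cy5 over Cy3. It was the only list gene at or above Tbp on replicate 2, and it was far below Tbp on replicate 1. Of the RNA polymerase I and III partners, 6 of 12 were tested, with 4 above 0 and 2 below and a median of 0.123 (0.0154 read as Cy5 over Cy3, with 3 above and 3 below). Snapc2 and Snapc3, subunits of the complex that starts small nuclear RNA genes, averaged -0.490 ± 1.12 and 0.455 ± 1.02 (SD, n = 6 each; limma adjusted p = 0.999 for both). Array by array and as deposited, the number of list genes at or above Tbp was 0 of 26 on replicate 1, 1 of 26 on replicate 2 and 0 of 26 on replicate 5. It was 1 of 25 on replicate 6, 11 of 26 on replicate 4 and 9 of 23 on replicate 3. Of all genes, 0.206%, 0.590% and 0.932% were at or above Tbp on replicates 1, 2 and 5. The shares were 8.40%, 31.5% and 43.2% on replicates 6, 4 and 3. The counts thus show the place of Tbp on each array and do not set the list genes apart. Where an array is turned the order of its genes turns with it. The number of list genes at or above Tbp would then be 26 of 26 on replicate 1, 25 of 26 on replicate 2 and 26 of 26 on replicate 5.

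**Figure D4:**
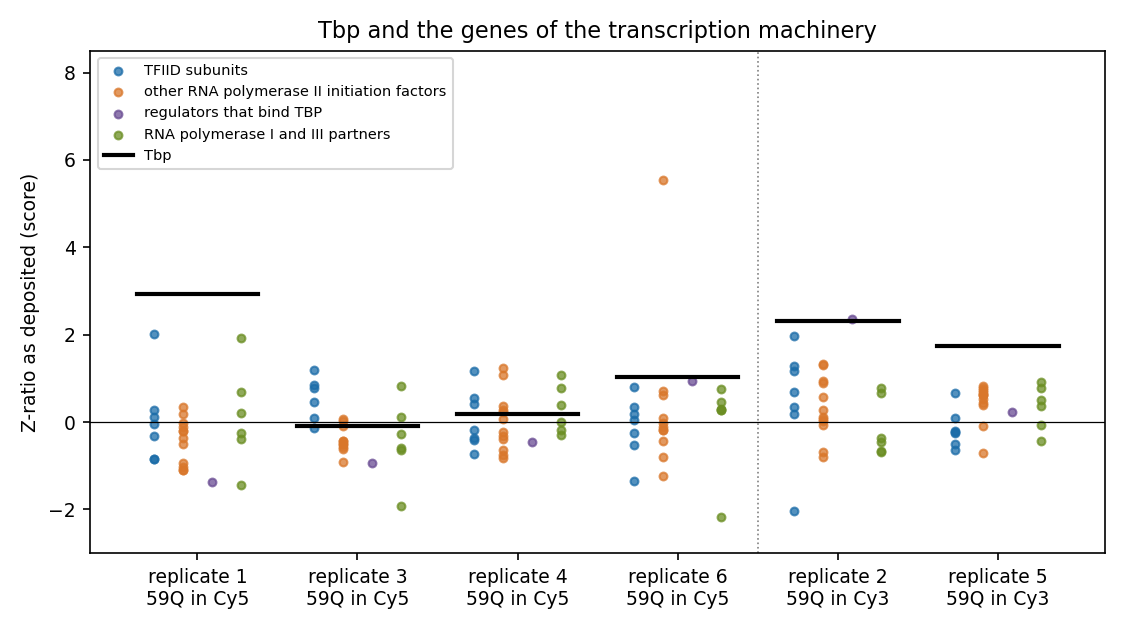
Deposited Z-ratio (score, vertical axis) of 26 genes of the transcription machinery on each array (horizontal axis, ordered by the dye of the 59Q sample). Points are genes, coloured by list, and the black line is Tbp, the mean of 2 clones. As deposited, Tbp lies above all 26 genes on replicates 1 and 5 and above all but Dr1 on replicate 2, whereas 9 of 23 genes on replicate 3 and 11 of 26 on replicate 4 are at or above it. Of all genes on the array, 0.206%, 0.932% and 0.590% are at or above Tbp on replicates 1, 5 and 2, and 43.2% and 31.5% on replicates 3 and 4. The point at 5.53 on replicate 6 is Ercc2.

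Likeness to Tbp was taken as the mean absolute difference in Z-ratio from Tbp over the 6 arrays, which is the same in every reading of the sign, and its median over 4925 genes was 1.52. A gene at 0 on every array would differ from Tbp by 1.38, the mean size of Tbp, so a small difference need not mean a shared course. The 5 nearest genes were Lss, the lanosterol synthase of sterol synthesis (0.856), Man2a2, a Golgi mannosidase (0.856), Slc2a3, a glucose transporter of neurons (0.895), Kcnn4, a potassium channel (0.896) and the tetraspanin Cd9 (0.927). Each is measured by 1 clone, and as deposited their means of 0.496 to 0.656 were all below the mean of Tbp. Lss had 0.576, 1.63, 0.255, -0.616, 1.14 and 0.674 on replicates 1 to 6, so it was high on replicates 2 and 5 and not on replicate 1. None of the 5 passed in limma (adjusted p = 0.999 for each).

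On the 3 arrays with the fewest missing spots, replicates 1, 2 and 5, just 2 of the other genes on all arrays reached the lowest Tbp value there, 1.74, on every one. They were Bst2 and Ifitm3, membrane proteins induced by interferon, and this comparison was chosen after the values were seen. Bst2 had 1.82, 4.06, 1.30, 1.03, 1.75 and 1.72 on replicates 1 to 6, and Ifitm3 had 2.55, 4.23, 2.27, -0.278, 2.20 and 0.574. Bst2 was above 1 on replicates 3 and 4 and Ifitm3 was at 2.27 on replicate 3, where Tbp lay near 0, so their courses part there. By mean absolute difference from Tbp they were at place 13 (0.966) and place 21 (1.00) of 4925. That difference includes replicates 1, 2 and 5, whose values were used to choose them. Near places therefore follow in part from the choice, and no conclusion is drawn from them. Read as Cy5 over Cy3 the means of Bst2 and Ifitm3 were 0.00955 and -0.219. Both genes were chosen for high values on replicates 1, 2 and 5, and this reading turns replicates 2 and 5. Means near 0 thus largely follow from the choice and do not bear on likeness to Tbp.

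Among markers of glia, fibroblasts, blood and vessel cells, 5 of 13 were measured, with 2 above 0 and 3 below, a range from -0.623 to 0.124, and 0 passed in limma, and 1 had a p under 0.05 before adjustment, where 2.61% of all genes did. Mbp, the myelin basic protein, averaged -0.623 and Col1a2, a collagen chain, 0.124. The other markers measured were Col1a1, Col3a1 and Pdgfra, and no marker of blood or vessel cells was among the 5.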

How the data were processed

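The authors labelled total RNA with a tyramide signal amplification kit, hybridized 59Q and N3 samples together on 6 two-colour mouse cDNA arrays, scanned them, read them with GenePix Pro and applied a Z score transformation, with versions not given in the sources used here. Deposited values are Z-ratios, a score per spot whose mean is 0 and whose SD is 1 over each array. Spot intensities were not used, so signal over background is unknown.

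Odd and next even spots, which carried the same accession in 9449 of 9449 pairs with an annotation, were averaged to clones, and clones to genes. Of 18384 spots with 1 symbol, 18172 were matched by Entrez ID to RefSeq gene names (GRCm38.p6). Besides these 18384, 514 spots had several symbols and 12302 are unnamed here. All 4 Tbp spots matched. Genes and clones with values on at least 4 arrays went into limma 3.58.1 (R 4.3.3, intercept, eBayes, Benjamini-Hochberg), with all 6 arrays as replicates in 1 group. Exact tests for Tbp and its clones, 12 in all over the 3 readings, were run with numpy 2.4.6 in Python 3.11.15. The dye difference was tested by permuting the arrays' orientation.

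The members, lists and tests were chosen with earlier results of these data known. The lists were TBP relatives (0 of 2 on the arrays), TFIID subunits, other RNA polymerase II initiation factors, regulators that bind TBP, RNA polymerase I and III partners, chromosomal neighbours and markers of other cell types. Named genes were Tbp, measured relatives and neighbours, the 2 genes of lowest limma p in each list, and the 5 genes nearest to Tbp. Bst2, Ifitm3, Ercc2 and Brf2 were named outside this rule, after their values were seen. The fits were tested on simulated data with 200 changed genes. Alternatives covered sign, arrays used, a dye term, flip-dye pairs, centring, scaling, quantile normalization, missing and extreme spots, position, averaging, the variance model and leaving out each replicate. Turning replicate 1 was added after seeing the data.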

Additional observations from a re-analysis of the deposited data

Results flagged for a closer look

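In 42 sets of values checked over the arrays, 3 had 1 array far from the others, by a test that chance sets off in about 1 of 20 sets; the check covered Tbp, its clones and the genes set beside it, and neither Tbp nor its clones stood out. Ercc2, the helicase of TFIIH, had a Z-ratio of 5.53 on replicate 6, while its other 4 arrays ran from -0.360 to 0.777, so its mean of 1.24 rests on that array. Brf2, an RNA polymerase III factor that binds TBP, had -1.93 on replicate 3, with the others from -0.385 to 0.508. Bst2 had 4.06 on replicate 2, with the others from 1.03 to 1.82.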

How the results depend on the processing

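Turning the sign of replicates 2 and 5 (Cy5 over Cy3) reversed the Tbp mean to -0.00150, the clone at 5495 and 5496 to -0.156 and the difference between dye orientations (59Q in Cy3 minus 59Q in Cy5) to -3.03. Under the other 22 alternatives the Tbp mean stayed above 0 and did not pass in limma. Over all 23 it ran from -0.00150 to 1.64, with limma adjusted p from 0.364 to 1.000. Leaving out 1 replicate gave 1.03 to 1.64 for Tbp, 1.26 to 1.90 and 0.812 to 1.39 for its clones, 0.645 to 1.65 for the orientation difference and 0.115 to 0.528 for the clone difference. The lowest clone difference is without replicate 6, and on replicates 3, 4 and 6 alone the Tbp mean fell to 0.373. The genes of the transcription machinery had 0 calls under all 23. Of 19 named genes other than Tbp, 7 changed sign when replicates 2 and 5 were turned, 3 when replicate 1 was turned and 2 when 1 replicate was left out (Dr1, at -0.322 without replicate 2 and -0.0390 without replicate 6, and Brf2, at 0.0453 without replicate 3). In all 11 changed sign under some alternative, and none passed in limma under any alternative run. No paired analysis was possible because the arrays form 1 group, each already comparing 59Q with N3. Averaging the arrays into 4 samples by each of 12 possible flip-dye pairings gave 1.02 to 1.51 for Tbp (limma adjusted p from 0.715 to 0.950). Precision is limited by the small number of arrays, and the exact sign-flip permutation test allows no p under 0.125 with 4 samples.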
